A study of Mus musculus with 49 samples.

Results

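The genes described here are 10 targets of the tumour suppressor p53 and regulators of cell death, namely Cdkn1a, Eda2r, Mdm2, Ccng1, Phlda3, Bax, Bbc3, Trp53inp1, Gadd45a and Zmat3. They were chosen by symbol, with earlier results of these data known, and are 10 of the 45252 genes in the count table. All 10 passed the filter on low counts, which kept 18220 genes for testing. Neocortical RNA of 49 mice was sequenced, with 1 library per mouse. The rNLS8 mice carry the transgenes NEFH-tTA and tetO-hTDP-43ΔNLS on a mixed C57BL/6J × C3H/HeJ background, so that withdrawal of doxycycline induces human TDP-43 lacking its nuclear localization signal in neurons, under the promoter of the neurofilament heavy chain. All mice were kept on doxycycline until 25.5 weeks of age and were sacrificed 3 weeks later, at 28.5 weeks. The ctrl-PBS group (17 mice) held monogenic littermates without induced transgene expression that received PBS. TDP-PBS (10 mice) were rNLS8 mice that received PBS. TDP-10+12 (10 mice) and TDP-15 (12 mice) were rNLS8 mice immunized, 5 times before and 1 time after induction, with 40 µg of peptides 10 and 12 or of peptide 15, which carries a phosphorylated site at the C-terminus of TDP-43. Injections of peptide or PBS began at 8 weeks of age in all groups. Females and males numbered 10 and 7 in ctrl-PBS, 4 and 6 in TDP-PBS, 6 and 4 in TDP-10+12, and 5 and 7 in TDP-15. The study asked with these libraries how transgene induction changed neocortical gene expression, and whether immunization altered that change. The peptides were conjugated to ovalbumin and given with adjuvants, and the PBS groups received PBS in place of the conjugates. Immunized monogenic mice were not analysed here, so an effect of immunization in the absence of the transgene cannot be told apart from its effect in rNLS8 mice.

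p53 is a transcription factor that is stabilized by DNA damage and other stress. It then induces genes that stop the cell cycle, such as Cdkn1a, genes that start apoptosis at mitochondria, such as Bbc3 and Bax, and genes that limit p53 itself, such as Mdm2. In postmitotic neurons this pathway is known mainly for its part in cell death after injury, and several of its targets are also induced in glia.

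p53 binds an element of 2 abutting half-sites of 10 bases each, and a match to this element within the promoter window was the sequence feature examined. RefSeq windows of 250 bases before to 50 bases after a gene's start (GRCm38.p6) were found for 8 of the 10 genes, 11 windows in all, and none for Trp53inp1 and Zmat3. With at most 2 mismatches to the consensus of 20 bases and the C and G at the core of each half-site intact, which reads alike on both strands, 2 of the 11 windows held the element, against 0.326% of all 32851 windows. With at most 1 mismatch, which both of these had, the share of all windows was 0.0670%. The windows of Cdkn1a and Ccng1 are printed because they held the element and because their genes, as described below, moved in opposite directions in rNLS8 mice. The capitals mark the element. The Cdkn1a window lies at chr17:29090729-29091028 on the plus strand, with the element at position -51 from the start of the upstream transcript, and the Ccng1 window at chr11:40755237-40755536 on the minus strand, with the element at position -195.
Cdkn1a: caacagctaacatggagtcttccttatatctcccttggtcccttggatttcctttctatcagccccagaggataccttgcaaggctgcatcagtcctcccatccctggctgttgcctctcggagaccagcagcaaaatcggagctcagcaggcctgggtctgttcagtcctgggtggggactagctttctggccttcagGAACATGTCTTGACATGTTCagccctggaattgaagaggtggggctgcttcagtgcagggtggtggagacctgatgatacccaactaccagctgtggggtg
Ccng1: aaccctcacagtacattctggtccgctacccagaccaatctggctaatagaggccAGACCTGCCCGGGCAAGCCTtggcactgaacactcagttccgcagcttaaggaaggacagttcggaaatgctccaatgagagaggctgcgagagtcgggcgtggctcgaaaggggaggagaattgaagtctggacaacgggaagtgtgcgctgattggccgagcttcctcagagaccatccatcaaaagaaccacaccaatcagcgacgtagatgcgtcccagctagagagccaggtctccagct
The other start of Cdkn1a and the windows of Eda2r, Mdm2, Phlda3, Bax, Bbc3 and Gadd45a did not hold these letters, which says nothing of elements outside the windows. A perfect single half-site was present in 5 of the 11 windows and in 8.36% of all windows.

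Total counts lay between 17775738 and 21033608 per mouse (median 19955601), with group means within 346347 counts of each other. Levels are given in CPM, that is, counts scaled to a common library size with edgeR's TMM factors, on which 3 counts, taken as the floor, correspond to 0.139 to 0.165 CPM. The floor covers counting error only. Mouse Tardbp, the endogenous gene for TDP-43, was the check of the model: compared with ctrl-PBS it changed by -0.30 (TDP-PBS), -0.24 (TDP-10+12) and -0.27 (TDP-15) on the log2 scale (edgeR, adjusted p = 1.54e-06, 7.98e-05 and 3.03e-06), and whether the counting assigned human transgene reads to it is not given in the sources used here. No marker specific to the neocortex was examined. All libraries held neuronal RNA, with a summed level of 6 neuron markers between 4257 and 7586 CPM in the 49 mice. That sum was 5742 to 7586 CPM in ctrl-PBS and 4257 to 5468 CPM in TDP-PBS, and 4 of the 6 markers fell in each rNLS8 group. All marker counts here stand beside the shares of all genes tested that passed against ctrl-PBS. These were 21.9% higher and 21.6% lower in TDP-PBS, 20.8% and 20.0% in TDP-10+12, and 23.6% and 23.2% in TDP-15. Rbfox3 and Slc17a7 did not pass in any of these groups, with log2 fold changes of -0.06 and -0.03 in TDP-PBS. In bulk tissue, fewer cells of a type and less RNA per cell cannot be told apart. Of 6 microglia markers 4 rose in each rNLS8 group (summed level 206 to 242 CPM in ctrl-PBS and 247 to 336 CPM in TDP-PBS), while P2ry12 fell in TDP-10+12 and TDP-15, by 0.18 and 0.15 on the log2 scale (edgeR, adjusted p = 0.0135 and 0.0260). Of 6 astrocyte markers, Gfap rose and Gja1 fell in TDP-PBS, while 0 of 6 oligodendrocyte, 0 of 5 oligodendrocyte precursor, 0 of 6 endothelial, 0 of 5 blood and 0 of 2 tested leukocyte markers passed the threshold there. Markers of neighbouring tissue varied from mouse to mouse, with a summed level of 5 choroid plexus markers from 12.7 to 1702 CPM and of 5 olfactory bulb markers from 4.20 to 134 CPM. Of these, 4 choroid plexus markers were higher in TDP-10+12 than in ctrl-PBS and 1, Ttr, in TDP-15 (log2 fold change 2.05; edgeR, adjusted p = 0.0469), and 3 olfactory bulb markers were lower in TDP-PBS. Their part in the results below was not tested, nor was that of the neuron and microglia markers.

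In TDP-PBS mice, 8 of the 10 genes differed from ctrl-PBS, counting Eda2r, which passed the filter on low counts only through the rNLS8 mice. Cdkn1a, Eda2r, Phlda3, Bbc3 and Trp53inp1 rose, and Ccng1, Zmat3 and Gadd45a fell, whereas Mdm2 and Bax did not pass the threshold (quasi-likelihood test of edgeR, Benjamini-Hochberg adjustment over 18220 genes, adjusted p under 0.05). Over all genes tested, 43.5% passed in this comparison, 21.9% as higher and 21.6% as lower. The median log2 fold change of the 10 genes was 0.32, compared with -0.000388 over all genes tested, and the median absolute change was 0.50 compared with 0.19. In TDP-10+12 and in TDP-15, 7 of the 10 genes differed from ctrl-PBS, 5 higher and 2 lower, namely those of TDP-PBS without Gadd45a. There, 40.8% of all genes passed in TDP-10+12 (20.8% higher, 20.0% lower) and 46.9% in TDP-15 (23.6% higher, 23.2% lower), and the median log2 fold changes of the 10 genes were 0.13 and 0.24. In the same direction in all 3 rNLS8 groups, 7 of the 10 genes passed, against 32.8% of all genes. Since the 10 genes were chosen with earlier results of these data known, setting them beside all genes is a description and not a test. These 3 comparisons share the 17 ctrl-PBS mice and are not independent of each other. For each gene, the mice beyond the ctrl-PBS range are counted below. The same was not counted over all genes, so these numbers describe the gene and do not set it apart from others.

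**Figure D1:**
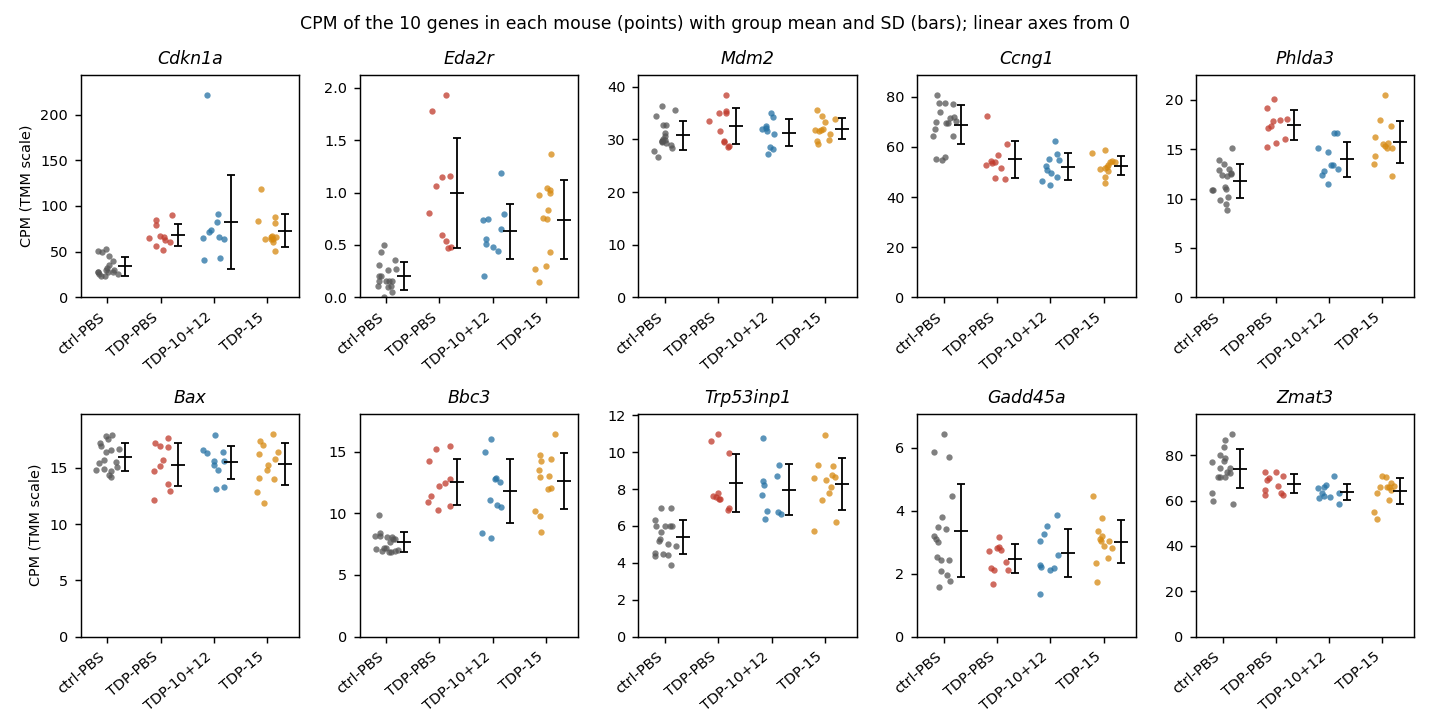
CPM (vertical axes, linear and starting at 0) of each of the 10 genes in each of the 49 mice, by group. Points are mice, and the black bars beside them are the group mean and SD. Phlda3 and Bbc3 show no overlap between the 10 TDP-PBS and the 17 ctrl-PBS mice, and 1 TDP-10+12 mouse stands apart in Cdkn1a at 222 CPM. The share of all genes without such overlap was not counted.

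Cdkn1a encodes p21, the inhibitor of cyclin-dependent kinases through which p53 arrests the cell cycle (chr17:29090976-29100727, plus strand, GENCODE annotation of GRCm38). Its level lay between 23.1 and 52.7 CPM in ctrl-PBS (median 29.5). In TDP-PBS it lay between 52.0 and 89.6 CPM (median 65.5), in TDP-10+12 between 41.1 and 222 (median 68.9) and in TDP-15 between 50.8 and 119 (median 66.2). Of the 32 rNLS8 mice 28 were over the highest ctrl-PBS mouse, among them 9 of 10 TDP-PBS mice. Cdkn1a was 2.02-fold higher in TDP-PBS (95% interval 1.60 to 2.56), with a log2 fold change of 1.02 (SE 0.17; edgeR, adjusted p = 2.21e-06). The log2 fold changes in TDP-10+12 and TDP-15 were 1.28 (SE 0.17) and 1.11 (SE 0.16; edgeR, adjusted p = 1.42e-08 and 1.13e-07). The group mean of TDP-10+12, 82.1 ± 51.4 CPM (SD, n = 10), rested in part on mouse 8, at 222 CPM from 4481 counts, without which it was 66.5 ± 16.3 CPM (n = 9) and the log2 fold change against ctrl-PBS was 0.99. The transcript AC167363.2 is annotated on the other strand across Cdkn1a, and without a stated strand setting their reads cannot be told apart.

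Bbc3 encodes PUMA, a BH3-only protein that frees BAX and BAK to permeabilize the mitochondrial outer membrane (chr7:16308393-16318205, plus strand). It had 6.84 to 9.88 CPM (median 7.69) in ctrl-PBS and 10.3 to 15.5 CPM (median 12.4) in TDP-PBS. In TDP-10+12 it had 8.03 to 16.1 CPM (median 11.8), and in TDP-15 8.45 to 16.4 (median 12.97). All TDP-PBS mice were over the highest ctrl-PBS mouse, as were 8 of 10 TDP-10+12 and 10 of 12 TDP-15 mice. Bbc3 was 1.64-fold higher in TDP-PBS (95% interval 1.44 to 1.86; log2 fold change 0.71, SE 0.09, edgeR, adjusted p = 5.81e-09), and its log2 fold changes in TDP-10+12 and TDP-15 were 0.62 (SE 0.09) and 0.72 (SE 0.09).

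Bax, which encodes the pore-forming effector on which PUMA acts (chr7:45461697-45466898, minus strand), did not pass the threshold in any rNLS8 group. Its level was 14.1 to 17.9 CPM (median 15.7) in ctrl-PBS, 12.1 to 17.7 (median 15.5) in TDP-PBS, 13.2 to 17.9 (median 15.6) in TDP-10+12 and 11.8 to 18.0 (median 15.5) in TDP-15. The groups overlapped, with 9 of the 32 rNLS8 mice below and 2 above every ctrl-PBS mouse. The log2 fold change in TDP-PBS was -0.07, with a 95% interval of -0.19 to 0.06 (edgeR, adjusted p = 0.414). The counts of Bax are uncertain, since the protein-coding gene Gm45808 overlaps it on the same strand.

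Phlda3 encodes a pleckstrin homology protein that competes with the survival kinase Akt for membrane lipids (chr1:135766119-135769136, plus strand). It had 8.84 to 15.1 CPM (median 12.3) in ctrl-PBS and 15.2 to 20.1 CPM (median 17.6) in TDP-PBS. In TDP-10+12 it had 11.5 to 16.7 CPM (median 13.4), and in TDP-15 12.3 to 20.5 (median 15.4). All 10 TDP-PBS mice were over the highest ctrl-PBS mouse, compared with 3 of 10 TDP-10+12 and 9 of 12 TDP-15 mice. Of the 10 genes, Phlda3 had the smallest p in TDP-PBS, with a 1.48-fold increase (95% interval 1.34 to 1.64; log2 fold change 0.57, SE 0.07, edgeR, adjusted p = 5.58e-09). The log2 fold changes in TDP-10+12 and TDP-15 were 0.24 (SE 0.07) and 0.42 (SE 0.07; edgeR, adjusted p = 0.00571 and 1.55e-06).

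Eda2r encodes a receptor of the tumour necrosis factor family for the A2 form of ectodysplasin (chrX:97333840-97377216, minus strand). Its RNA was scarce, with 0 to 10 counts per ctrl-PBS mouse, 9 of the 17 at or below the floor of 3 counts, and 9 to 40 counts per TDP-PBS mouse. In CPM this was 0 to 0.503 (median 0.156) in ctrl-PBS, 0.471 to 1.93 (median 0.931) in TDP-PBS, 0.201 to 1.19 (median 0.604) in TDP-10+12 and 0.146 to 1.37 (median 0.795) in TDP-15. The largest fold change of the 10 genes was that of Eda2r, 4.71-fold in TDP-PBS (95% interval 3.06 to 7.27), with log2 fold changes of 2.24 (SE 0.31), 1.58 (SE 0.33) and 1.81 (SE 0.31) in TDP-PBS, TDP-10+12 and TDP-15 (edgeR, adjusted p = 4.30e-08, 7.90e-05 and 2.30e-06). Above every ctrl-PBS mouse were 8 of 10, 7 of 10 and 8 of 12 mice of these groups. At such low counts the size of the fold is imprecise. Eda2r also passed the filter on low counts only through the rNLS8 mice, the groups in which it was higher. Its call in the main fit was made after that selection. Without a filter on low counts the call in TDP-PBS was kept (log2 fold change 2.24; edgeR, adjusted p = 6.87e-08). Eda2r was not among the genes tested when at least 10 counts were required in every mouse, or in a fit of ctrl-PBS and TDP-PBS alone.

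Trp53inp1 encodes a nuclear and autophagosomal protein that enhances p53 activity (chr4:11156431-11174379, plus strand). Its level was 3.87 to 6.99 CPM (median 5.28) in ctrl-PBS, 6.85 to 10.98 (median 7.61) in TDP-PBS, 6.38 to 10.8 (median 7.93) in TDP-10+12 and 5.71 to 10.9 (median 8.56) in TDP-15. Of the 32 rNLS8 mice 24 were over the highest ctrl-PBS mouse. The log2 fold changes were 0.62, 0.56 and 0.61 (SE 0.10, 0.10 and 0.09; edgeR, adjusted p = 6.06e-07, 5.69e-06 and 2.60e-07), or 1.54-fold in TDP-PBS (95% interval 1.34 to 1.76).

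Ccng1 encodes cyclin G1, which brings the phosphatase PP2A to MDM2 and was found as an induced target of p53 (chr11:40748552-40755311, minus strand). It fell in all 3 rNLS8 groups. Its level was 54.9 to 80.7 CPM (median 69.7) in ctrl-PBS, 47.1 to 72.3 (median 53.7) in TDP-PBS, 44.97 to 62.3 (median 51.5) in TDP-10+12 and 45.6 to 58.9 (median 52.4) in TDP-15. Below every ctrl-PBS mouse were 24 of the 32 rNLS8 mice, 7 of 10 in TDP-PBS, 7 of 10 in TDP-10+12 and 10 of 12 in TDP-15. The log2 fold changes were -0.32, -0.40 and -0.39 (SE 0.06 in each; edgeR, adjusted p = 1.67e-05, 3.29e-07 and 1.13e-07). The promoter windows of Cdkn1a and Ccng1 printed above both held a p53 element with 1 mismatch, while Cdkn1a rose and Ccng1 fell.

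Zmat3, which encodes an RNA-binding zinc finger protein induced by p53 (chr3:32334792-32366014, minus strand), also fell, by less. Its level was 58.4 to 89.3 CPM (median 74.3) in ctrl-PBS, 62.5 to 72.6 (median 67.8) in TDP-PBS, 58.4 to 71.1 (median 63.4) in TDP-10+12 and 51.9 to 71.0 (median 65.9) in TDP-15. The groups overlapped, and 3 of the 32 rNLS8 mice were under the lowest ctrl-PBS mouse. The log2 fold changes were -0.13 in TDP-PBS, -0.21 in TDP-10+12 and -0.21 in TDP-15 (SE 0.05 in each; edgeR, adjusted p = 0.0313, 0.000775 and 0.000366). In TDP-PBS the call was lost without a filter on low counts (adjusted p = 0.0704), when the fit held just ctrl-PBS and TDP-PBS (adjusted p = 0.0748) and when any of 11 of the 27 mice was left out (edgeR).

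Gadd45a encodes a stress-induced protein that binds CDK1 and PCNA and halts the cell cycle (chr6:67035096-67037457, minus strand). Its level in ctrl-PBS spread from 1.57 to 6.43 CPM (median 3.09), wider than in TDP-PBS with 1.67 to 3.16 CPM (median 2.55). In TDP-10+12 it was 1.36 to 3.86 CPM (median 2.43), and in TDP-15 1.74 to 4.47 (median 3.04). Only 1 of the 32 rNLS8 mice lay outside the ctrl-PBS range. Gadd45a passed the threshold in TDP-PBS with a log2 fold change of -0.44 (SE 0.18; edgeR, adjusted p = 0.0417), and had -0.35 (adjusted p = 0.115) in TDP-10+12 and -0.16 (adjusted p = 0.467) in TDP-15. The call in TDP-PBS was lost in 4 of 8 alternative settings, with an adjusted p between 0.0386 and 0.180 over them, and when any of 14 of the 27 mice was left out, for example to 0.0920 without 1 ctrl-PBS mouse. E230016M11Rik overlaps Gadd45a on the other strand, and their reads cannot be told apart here.

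Mdm2 encodes the ubiquitin ligase that degrades p53 and is itself a p53 target (chr10:117688875-117710758, minus strand). Its level was steady over the 49 mice, with 26.7 to 36.4 CPM (median 29.8) in ctrl-PBS, 28.5 to 38.5 (median 32.6) in TDP-PBS, 27.2 to 34.99 (median 31.8) in TDP-10+12 and 29.1 to 35.6 (median 31.8) in TDP-15. Only 1 TDP-PBS mouse was over the highest ctrl-PBS mouse, and none was under the lowest. The log2 fold changes were 0.08 (95% interval -0.02 to 0.18), 0.02 (-0.08 to 0.12) and 0.06 (-0.04 to 0.15) in TDP-PBS, TDP-10+12 and TDP-15 (edgeR, adjusted p = 0.194, 0.774 and 0.346). In TDP-PBS the interval thus reached from a 0.987-fold to a 1.13-fold level.

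**Figure D2:**
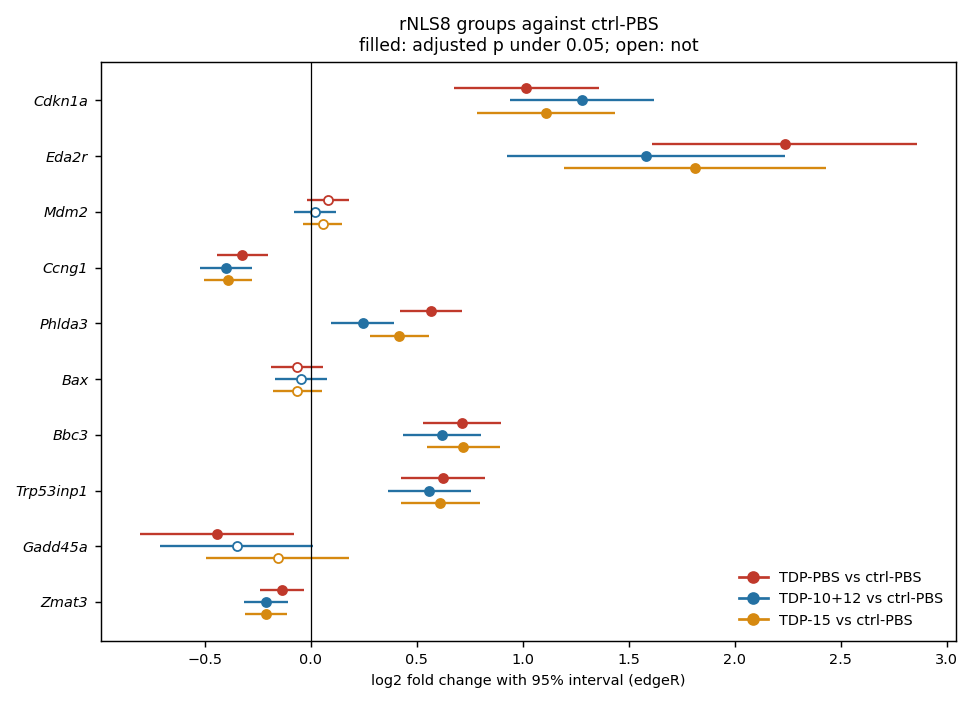
Log2 fold change (horizontal axis) with 95% interval of the 10 genes in TDP-PBS, TDP-10+12 and TDP-15 against ctrl-PBS. Filled points passed an adjusted p of 0.05, open points did not. The increases of Cdkn1a, Eda2r, Phlda3, Bbc3 and Trp53inp1 and the decreases of Ccng1 and Zmat3 appear in all 3 groups, and the intervals of Mdm2 and Bax include 0.

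To compare levels between genes, CPM were divided by the length of the merged exons in kilobases. In ctrl-PBS, Ccng1 came first with 19.6 ± 2.24 CPM per kilobase (SD, n = 17), followed by Bax with 10.1 ± 0.785 and Cdkn1a with 9.50 ± 2.86. The ranges of Bax (8.98 to 11.4) and Cdkn1a (6.49 to 14.8) overlapped, and neither reached that of Ccng1 (15.6 to 23.0). Phlda3, Zmat3 and Mdm2 followed with 7.56, 6.48 and 6.06, also with overlapping ranges. Bbc3 had 3.61, Gadd45a 1.91, Trp53inp1 0.835 and Eda2r 0.0351 CPM per kilobase. In each rNLS8 group Cdkn1a took the first place and Ccng1 the second, for example with 19.2 ± 3.48 and 15.7 ± 2.08 CPM per kilobase in TDP-PBS (SD, n = 10), where their ranges, 14.6 to 25.2 and 13.4 to 20.6, overlapped.

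Other genes of the pathway were grouped by role, and their counts stand beside the 43.5% of all genes that passed in TDP-PBS, 21.9% higher and 21.6% lower. The lists, too, were chosen with earlier results of these data known, so this is a description and not a test. Whether any listed gene passed the filter on low counts only through the rNLS8 mice, as Eda2r did, was not examined. Of 13 tested genes of the p53 network, 1 rose, 2 fell and 10 did not pass in TDP-PBS (median log2 fold change -0.03). Trp53, the gene for p53 itself, was the one that rose, with log2 fold changes of 0.48, 0.37 and 0.41 in TDP-PBS, TDP-10+12 and TDP-15 (edgeR, adjusted p = 1.10e-09, 4.63e-07 and 1.37e-08). Usp7, a deubiquitinase of MDM2 and p53, fell (-0.34), as did Trp53inp2 (-0.21), which acts in autophagy. Mdm4, the inhibitory partner of MDM2, had 0.10 in TDP-PBS (adjusted p = 0.0619), and rose in TDP-10+12 (0.11, adjusted p = 0.0314) and TDP-15 (0.16, adjusted p = 0.00101, edgeR).

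Among 36 further p53 targets, 16 rose, 6 fell and 14 did not pass in TDP-PBS, with a median of 0.19. In TDP-10+12 and TDP-15 these counts were 15, 6 and 15. Aen, an exonuclease of apoptosis, rose by 0.62 on the log2 scale, and the death receptor gene Fas by 1.26 (edgeR, adjusted p = 4.00e-13 and 1.67e-06). Fbxw7, a substrate receptor for ubiquitination, changed by -0.45, and the immediate early gene Ier5 by -0.72 (adjusted p = 2.23e-11 and 1.03e-06).

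Of 9 pro-apoptotic BCL-2 genes beside Bax and Bbc3, 4 rose and 2 fell in TDP-PBS (median 0.10). Bid, which links death receptors to mitochondria, rose by 0.91, Bok by 0.66 and the effector Bak1 by 0.35 on the log2 scale, while Bnip3l, a mitophagy receptor, had -0.28. Of 5 tested pro-survival BCL-2 genes 3 rose and 1 fell (median 0.13). Bcl2l1, which encodes BCL-xL, fell (-0.18), and Bcl2l2 (0.13) and Mcl1 (0.20) rose. Bcl2a1b had 2.39, but belongs to a family of near-identical copies and is uncertain. For caspases, their inhibitors and the apoptosome, 6 of 14 rose and 2 fell, with a median of 0.10. Casp8, the initiator caspase of death receptors, had 0.60, Casp2 0.26 and the caspase inhibitor genes Birc3 and Xiap 0.66 and -0.21.

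Of 10 tested genes of necroptosis and pyroptosis, 6 rose and 1 fell in TDP-PBS, compared with 21.9% and 21.6% of all genes, and the median was 0.54. Zbp1, a nucleic acid sensor induced by interferon, rose by 2.66, Pycard, an inflammasome adaptor, by 1.08 and Ninj1, which ruptures the plasma membrane of dying cells, by 0.59 on the log2 scale (edgeR, adjusted p = 1.74e-09, 0.000161 and 2.33e-09). Gsdme, a pore-forming gasdermin, fell (-0.39). In TDP-10+12 the counts were 6 higher and 1 lower, and in TDP-15 7 and 1. When at least 10 counts were required in every mouse, fewer genes were tested, and 4 of this list passed in each rNLS8 group.

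A further list held other inhibitors of cyclin-dependent kinases, the INK4 genes Cdkn2b, Cdkn2c and Cdkn2d included, and paralogues of Gadd45a, Ccng1, Phlda3 and Zmat3. Of its 11 tested genes, 2 rose and 4 fell in TDP-PBS (median -0.06), and of the 5 tested kinase inhibitor genes Cdkn2d (-0.16; edgeR, adjusted p = 0.0238) was the one that passed. Gadd45g and Gadd45b rose by 0.93 and 0.39 on the log2 scale, whereas Gadd45a had -0.44, a call that did not hold in all settings. Phlda1 fell (-0.36) while Phlda3 rose, and Ccng2 (-0.24) and Zmat4 (-0.48) fell, as did Ccng1 and Zmat3. Among 6 genes of ectodysplasin and related receptors, 4 rose and 0 fell (median 0.35), with Traf6, an adaptor of EDA2R, at 0.59, Tnfrsf1a at 0.71, the ligand gene Eda at 0.47 and Tnfrsf21 at 0.23. Of 6 tested proliferation genes 3 rose and 1 fell. Mki67 had 1.28, Top2a 1.17, Mcm2 0.45 and Pcna, also a p53 target, -0.24, and the summed level of the list was 22.6 to 29.9 CPM in ctrl-PBS and 24.5 to 30.3 CPM in TDP-PBS. Listed genes that did not pass the filter on low counts were Cdkn2a, Gdf15, Bik, Bcl2a1d, Bcl2l10, Ripk3, Phlda2, Edar, Edaradd, Cdk1 and Ccnb1.

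**Figure D3:**
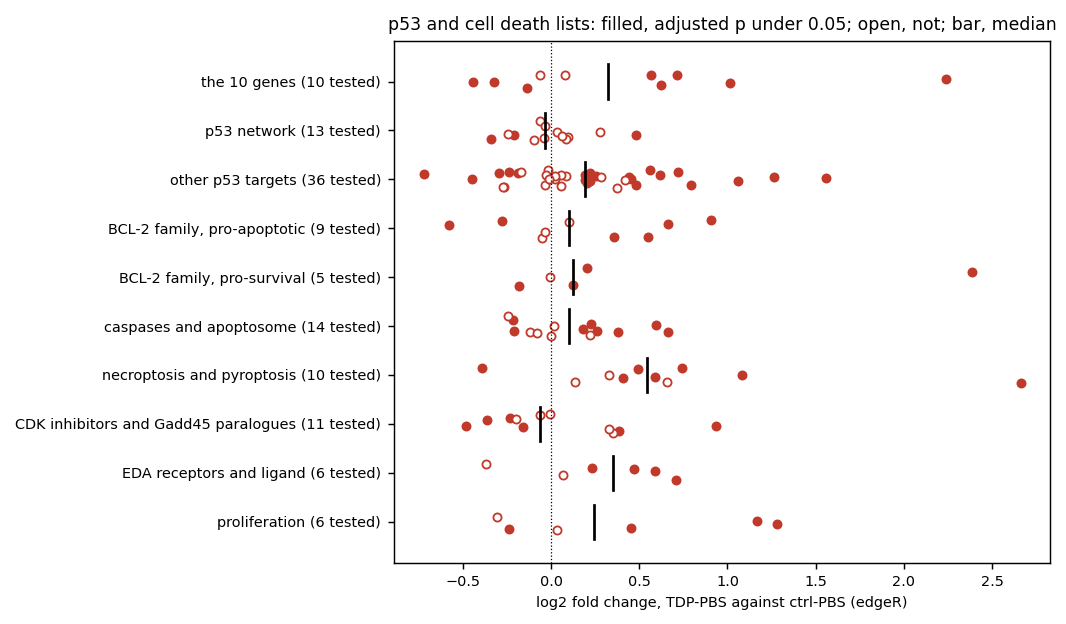
Log2 fold change in TDP-PBS against ctrl-PBS (horizontal axis) of the 10 genes and of each tested gene of the 9 other lists. Points are genes, filled where the adjusted p was under 0.05, and the vertical bar is the list's median. The medians lie between -0.06 and 0.54, and every list with at least 1 increase except that of the ectodysplasin receptors also holds a decrease that passed.

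Immunization was then compared with PBS among rNLS8 mice. None of the 10 genes passed the threshold in TDP-10+12 or TDP-15 against TDP-PBS, or in TDP-10+12 against TDP-15, and 0% of all 18220 genes did in each (edgeR). At an unadjusted p under 0.05 there were 2, 0 and 1 of the 10 genes, and 953, 552 and 1244 of all genes. Under 8 other settings, DESeq2 and limma-voom included, 0 of the 10 genes and at most 2 of all genes passed. The closest was Phlda3 in TDP-10+12, at 13.96 ± 1.77 CPM (SD, n = 10) compared with 17.5 ± 1.53 in TDP-PBS (SD, n = 10) and 15.7 ± 2.14 in TDP-15 (SD, n = 12). Only 2 of the 10 TDP-10+12 mice exceeded the lowest TDP-PBS mouse. The log2 fold change of Phlda3 against TDP-PBS was -0.32 (SE 0.08, 95% interval -0.49 to -0.16), with an unadjusted p of 0.000258, the eighth smallest of all genes, and an adjusted p of 0.588 (edgeR), which lay between 0.123 and 0.837 over the 8 settings. In TDP-15 it was -0.15 (95% interval -0.31 to 0.01, unadjusted p = 0.0605, edgeR). Between TDP-10+12 and TDP-15 the log2 fold change of Phlda3 was -0.17 (95% interval -0.33 to -0.01; edgeR, unadjusted p = 0.0334, adjusted p = 0.688).

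Eda2r had a log2 fold change of -0.66 in TDP-10+12 against TDP-PBS (95% interval -1.30 to -0.01; edgeR, unadjusted p = 0.0454, adjusted p = 0.947) and -0.42 in TDP-15 (-1.03 to 0.18). Cdkn1a had 0.26 (-0.12 to 0.65) and 0.09 (-0.28 to 0.46), and without mouse 8 the value in TDP-10+12 was -0.04. For the other 7 genes the log2 fold changes among the rNLS8 groups lay between -0.19 and 0.29. Their 95% intervals lay within -0.30 to 0.20, apart from those of Gadd45a, which reached from -0.58 to 0.67.

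**Figure D4:**
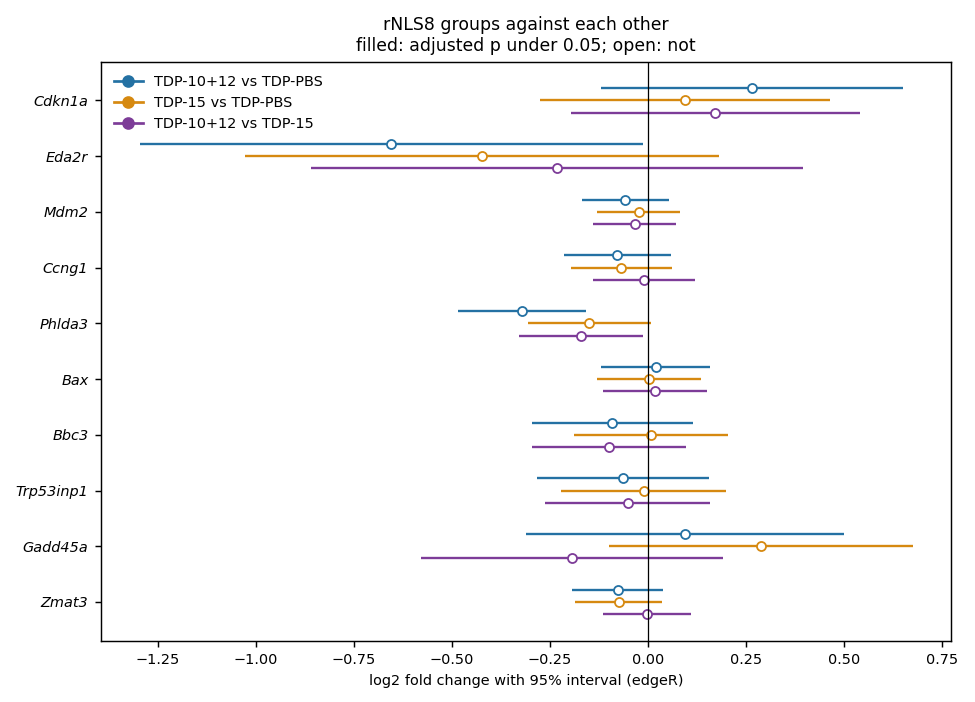
Log2 fold change (horizontal axis) with 95% interval of the 10 genes between the 3 rNLS8 groups. All points are open, since none passed an adjusted p of 0.05. The intervals of Phlda3 in both comparisons of TDP-10+12 and of Eda2r in TDP-10+12 against TDP-PBS do not include 0, but neither gene passed after adjustment over 18220 genes.

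Whether the difference between genotypes depended on sex was tested in the 27 mice that received PBS, 14 females and 13 males. Of the 9 members tested there, 0 passed, none had an unadjusted p under 0.05, and 0% of the 17363 genes tested passed (edgeR, 1097 of them at an unadjusted p under 0.05); DESeq2, and a fit of all 49 mice that also held Eda2r, also called 0 of them. The log2 fold change of Cdkn1a was 0.93 (SE 0.19) in females and 1.15 (SE 0.19) in males, that of Bbc3 0.77 (SE 0.10) and 0.69 (SE 0.10), and that of Phlda3 0.57 (SE 0.11) and 0.56 (SE 0.10). Trp53inp1 had 0.79 (SE 0.14) in females and 0.50 (SE 0.14) in males, a difference of -0.29 (SE 0.20) that did not pass (edgeR, adjusted p = 0.819).

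Within groups, few pairs of the 10 genes were correlated. Deviations from the group mean of log2 CPM were correlated over 49 mice for all 45 pairs (two-sided permutation tests with 100000 resamples, Benjamini-Hochberg adjustment over the 45 pairs), and 1 pair passed by both measures. Mdm2 and Bbc3 were inversely related, with Pearson's r = -0.53 (permutation p = 0.0001, adjusted p = 0.00450) and Spearman's rho = -0.54 (permutation p = 0.00016, adjusted p = 0.00720). Without the 2 mice farthest from the median of Mdm2, r was -0.48. Mdm2 and Gadd45a (r = 0.40, rho = 0.47) and Ccng1 and Zmat3 (r = 0.37, rho = 0.43) passed by Spearman's rho only (permutation tests, adjusted p = 0.0198 and 0.0466, against 0.0631 and 0.0724 for r). None of the 10 pairs among the 5 genes that rose passed by either measure. Eda2r and Trp53inp1 came closest, with r = 0.40 and rho = 0.40 (permutation tests, adjusted p = 0.0631 and 0.0517). Cdkn1a and Phlda3 had r = 0.29 and rho = 0.25, and without the 2 mice farthest from the median of Cdkn1a r was 0.41 (permutation test, adjusted p = 0.210 for r over all mice).

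**Figure D5:**
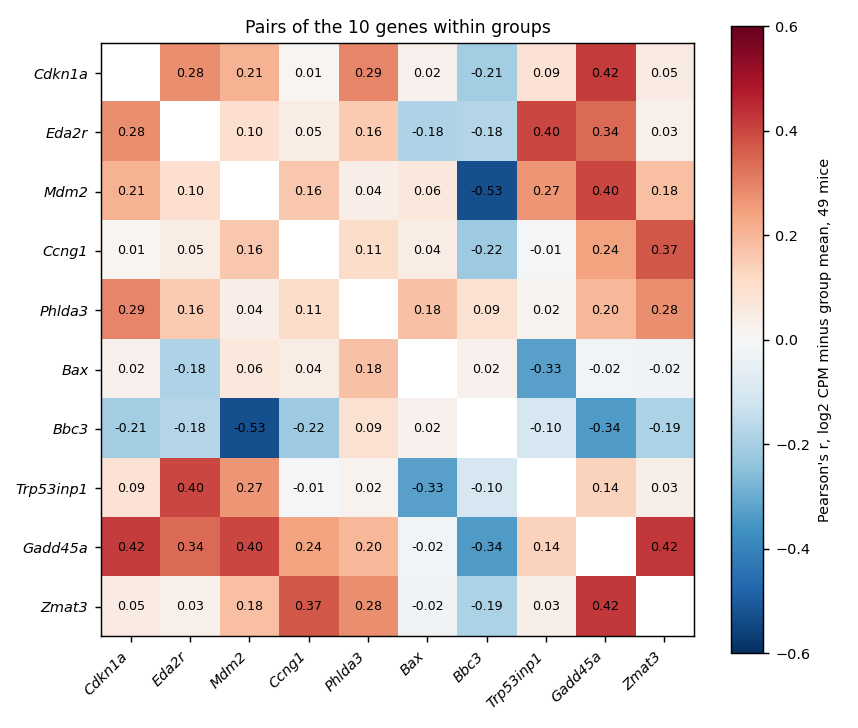
Pearson's r (colour and printed value) for each pair of the 10 genes over 49 mice, after the group mean was removed from log2 CPM. Most values lie near 0, and the pair of Mdm2 and Bbc3 at -0.53 is the one that passed by both measures.

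The genes most like a member in log2 CPM over the 49 mice, group differences included, are given for the 3 members with the smallest p in TDP-PBS, as a description. For Phlda3 they were Them6 (Pearson's r = 0.82) and C1qc (r = 0.80), a complement gene of microglia. For Bbc3 they were Cln6 (r = 0.87) and Sun2 (r = 0.84), and for Eda2r Gfap (r = 0.83) and Cd151 (r = 0.82). Gfap, the intermediate filament gene of reactive astrocytes, had 87.3 to 199 CPM in ctrl-PBS and 220 to 593 CPM in TDP-PBS, and its log2 fold change was 1.64. The mice share group and library in these values, so that genes changed in the same groups correlate for that alone.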

How the data were processed

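Total RNA (200 ng) of about 30 mg neocortex per mouse was sequenced (100 bp, paired-end), and the authors aligned the reads to GRCm38.p6. The deposited values are raw counts of genes in each mouse, not normalized. The submitters' processing notes name HISAT, HISAT2, Bowtie, Bowtie2 and RSEM, whose versions and roles, like the annotation and the strand setting, are not given in the sources used here. Since RSEM estimates counts, the whole numbers may be rounded. Total counts were 17775738 to 21033608 per mouse, and all columns were mapped to a sample (0 unmapped). Groups, sexes and mouse numbers came from the labels. Within groups, no 2 libraries were copies, with a chi-squared of at least 7.70 per degree of freedom (genes with at least 20 counts).

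Low counts were removed with filterByExpr (minimum count 10, minimum total 15, groups as given). A single model of all 49 mice with TMM factors and no covariates was fitted by edgeR's quasi-likelihood method (edgeR 4.0.16, R 4.3.3), two-sided, with Benjamini-Hochberg adjustment over all genes tested and a threshold of 0.05. SEs were derived from the F statistic. Log2 CPM used a prior count of 2. Alternatives were the scaling (DESeq2's size factors or the upper quartile), the filter (none, or 10 counts in each mouse), sex as a term, a fit restricted to the 2 groups, other tools (limma-voom with weights, limma 3.58.1; DESeq2 1.42.0) and each mouse left out. The fit was tested on simulated counts of TDP-PBS against ctrl-PBS (18060 genes), where 44% of 50 genes changed 1.25-fold, 75.5% of 49 changed 1.5-fold, 96% of 50 changed 2-fold and 93.5% of 46 changed 3-fold were recovered. The 1.25-fold and 2-fold changes were all increases and the others all decreases, so size and direction cannot be told apart. Changed genes lost to the filter were left out. Far fewer genes were changed than passed in the data, so these shares do not give the recovery there. Figures were drawn with matplotlib 3.10.9.

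Named were the 10 members, Trp53, Tardbp as a check, and up to 4 genes per list with the smallest p in TDP-PBS against ctrl-PBS. The 2 genes most correlated with each of 3 members were named as well. Untested list genes and overlapping genes were named for completeness, and Cdkn2d, Gadd45b, P2ry12, Rbfox3, Slc17a7 and Ttr after their values were seen. The members and lists were chosen with earlier results of these data known. The mice are separate animals, and p-values measure the spread between them.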

Additional observations from a re-analysis of the deposited data

Results flagged for a closer look

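In the groups of 10 mice, 20 sets of values (10 genes in TDP-PBS and TDP-10+12) were examined for a mouse standing apart, and 1 was found. Chance gives about 1 in 20 for normal values in independent sets. Here the 10 genes share the same mice and normality was not examined, so that rate is approximate. Cdkn1a in TDP-10+12 mouse 8, a male, was at 222 CPM, and the next mouse of the group was at 90.8 CPM. The gap was 0.725 of the group's range, above Dixon's critical value of 0.466. The same mouse had the highest Eda2r (1.19 CPM) and Gadd45a (3.86 CPM) of its group and the highest Gfap (1133 CPM), whereas its Bbc3 (8.41 CPM) and Ccng1 (46.3 CPM) were the second lowest of the 10. In TDP-15, whose 12 mice are too many for this criterion, mouse 3 had 119 CPM of Cdkn1a, with the other 11 mice at most at 88.4 CPM. It also had the highest Eda2r (1.37 CPM), Gadd45a (4.47 CPM) and Phlda3 (20.5 CPM) of its group.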

How the results depend on the processing

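Against ctrl-PBS, Cdkn1a, Eda2r, Phlda3, Bbc3, Trp53inp1 and Ccng1 kept their direction and their call in every alternative in which they were tested, each mouse left out included. When the fit held just the 2 groups, the number of the 10 genes that passed in TDP-PBS was 5 instead of 8, since Eda2r was not tested there and Gadd45a and Zmat3 were lost. When each mouse was left out in turn, the number was 6 to 8 in TDP-PBS, 7 to 7 in TDP-10+12 and in TDP-15, and 0 to 0 among the rNLS8 groups. Between TDP-10+12 and TDP-15, Cdkn1a had a log2 fold change of 0.17, which reversed to -0.0406 with limma-voom and lay between -0.13 and 0.26 with each mouse left out, the lowest without mouse 8. Against TDP-PBS, the value of 0.26 in TDP-10+12 lay between -0.0379 and 0.34 with each mouse left out, the lowest again without mouse 8. The cause of the reversal with limma-voom was not tested. With at least 10 counts in every mouse, fewer genes were tested, and 4 necroptosis and pyroptosis genes passed in each rNLS8 group, and 2, 2 and 1 proliferation genes in TDP-PBS, TDP-10+12 and TDP-15. With deviations taken from the mean of group and sex, 2 pairs of the 10 genes were correlated in place of 1. No paired analysis was possible because the labels give no litter or other link between the separate animals of different groups. Low counts limit the precision for Eda2r, and recovery of known changes was not simulated among the rNLS8 groups.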
